A study of Rattus norvegicus with 8 samples.

Results

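The genes described here mark the endocrine cells of the thyroid, and they were measured in a tissue that is not thyroid, the trigeminal nerve of the rat. They are 10 genes of the 13337 named on the array: 9 of the thyroid follicle (Tg, Slc5a5, Duox2, Iyd, Tshr, Dio1, Pax8, Foxe1 and Cdh16) and Calca of the C cell. Each was found by matching its symbol to the platform's probe annotation, and each had 1 probe. They were chosen by their levels in these same data, which earlier results had shown to be high in pools of the strain BDIX.BDIV-Mss4d, so that height is given as a description and not as a finding.

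The study used 8 Illumina RatRef-12 bead arrays, each hybridised with RNA from 1 pool of trigeminal nerves. The pools came from untreated rats aged 85 days, with 1 male and 1 female pool from each of 4 strains: the congenic strains BDIX.BDIV-Mss4d and BDIX.BDIV-Mss4a, BDIX rats with a chromosome segment of BDIV origin and called Mss4d and Mss4a below, and the inbred strains BDIV and BDIX. The number of animals in a pool is not stated, and each strain and sex had a single pool, so p-values measure only the spread between these pools. The 75th percentile of signal was 484 to 485 on the Mss4d arrays, 209 to 215 on Mss4a, 415 to 418 on BDIV and 333 to 339 on BDIX, so a batch of arrays and a strain cannot be told apart.

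Markers of the labelled tissue were present: 7 of 7 myelinating Schwann cell genes with a probe and 13 of 15 sensory neuron genes were above background on all 8 arrays. Median bead signal ran from 80.2 to 145 over the arrays, and 47.7% to 54.3% of 22523 probes were above background, meaning a detection p under 0.05 against the array's own negative controls. The precision is limited by the number of arrays. In pooled whole tissue, fewer cells of a type and less RNA per cell cannot be told apart.

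The thyroid follicle is a hollow ball of epithelial cells that stores hormone precursor in its lumen. Its cells take iodide from the blood, couple it to the tyrosines of thyroglobulin and release thyroid hormone when thyrotropin binds its receptor. C cells lie between the follicles, derive from another lineage and secrete calcitonin. Calca is read in another way by sensory neurons, which splice its transcript into the message for the neuropeptide CGRP, so Calca also has a known use in trigeminal neurons.

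The promoters of Dio1, Slc5a5 and Calca are shown first, since among the genes with a matched promoter these had the largest measured folds between the Mss4d male and Mss4d female pools. RefSeq promoter windows of build GRCr8, each 300 bases long, were matched for 6 of the 10 genes. Capitals mark CAAG or its reverse complement CTTG in Dio1 and Slc5a5, the core of the sequence bound by the thyroid transcription factor NKX2-1. In Calca they mark TGACG, a core of the site bound by cAMP response factors, searched together with its reverse complement CGTCA.
Dio1, chr5:127319735-127320034, minus strand: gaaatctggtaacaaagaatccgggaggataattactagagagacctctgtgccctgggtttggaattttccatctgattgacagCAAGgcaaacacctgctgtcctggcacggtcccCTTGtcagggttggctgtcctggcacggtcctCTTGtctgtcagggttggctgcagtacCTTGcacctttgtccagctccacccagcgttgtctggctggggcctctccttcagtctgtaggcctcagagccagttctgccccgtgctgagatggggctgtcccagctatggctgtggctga
Slc5a5, chr16:18580455-18580754, plus strand: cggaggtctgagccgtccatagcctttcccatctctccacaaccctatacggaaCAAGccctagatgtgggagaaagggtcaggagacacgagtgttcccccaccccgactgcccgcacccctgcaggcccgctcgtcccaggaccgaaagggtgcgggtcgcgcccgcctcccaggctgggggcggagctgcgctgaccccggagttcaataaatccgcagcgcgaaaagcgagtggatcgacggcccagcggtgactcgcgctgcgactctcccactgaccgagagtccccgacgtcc
Calca, chr1:178317480-178317779, minus strand: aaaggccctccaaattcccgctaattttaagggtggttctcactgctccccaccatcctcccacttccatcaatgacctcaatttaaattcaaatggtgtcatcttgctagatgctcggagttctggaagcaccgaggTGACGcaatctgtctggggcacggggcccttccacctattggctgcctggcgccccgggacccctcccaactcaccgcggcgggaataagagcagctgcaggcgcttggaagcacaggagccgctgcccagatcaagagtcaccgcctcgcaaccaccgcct
The Dio1 window held 4 matches to CAAG and the Slc5a5 window 1, and 91% of 33469 rat promoter windows hold at least 1, so the match sets neither gene apart. The Calca window held 1 match to TGACG, which 21.2% of the windows hold, and 3 matches to CAAG or CTTG, left in lower case. A match describes the letters of the window and does not show that a factor binds there.

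Thyroglobulin, encoded by Tg, is the protein scaffold on which thyroid hormone is made. The Tg probe gave a signal of 39938 in the Mss4d male pool and 6623 in the Mss4d female pool. In the other pools its signal was 89.8 in Mss4a males, 83.5 in Mss4a females, 84.8 in BDIV males, 82.8 in BDIV females, 79.1 in BDIX males and 69.2 in BDIX females. Tg was thus above background in both Mss4d pools and in none of the 6 others, where the detection p lay between 0.0630 and 0.324. On the log2 scale after background correction and quantile normalization, used for all normalized levels and folds below, Tg stood at 14.87 in Mss4d males and 12.20 in Mss4d females, against 4.87 to 5.12 in the other strains. The Mss4d male level exceeded the Mss4d female level 6.38-fold.

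Slc5a5 encodes the sodium iodide symporter, which brings iodide into the follicle cell. Its signal was 7907 in the Mss4d male pool, 279 in the Mss4d female pool, 156 and 118 in Mss4a males and females, 102 and 130 in BDIV males and females, and 103 and 101 in BDIX males and females. It was the only one of the 10 genes above background on all 8 arrays. Between the Mss4d pools the male level was 40.5-fold the female level. The Mss4d female pool was the highest of the 7 remaining pools in raw signal, while after quantile normalization it stood at 7.20, below the 7.39 of the Mss4a male pool.

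Duox2 encodes a dual oxidase that makes the hydrogen peroxide used to iodinate thyroglobulin. Its signal was 824 in the Mss4d male pool and 156 in the Mss4d female pool, with 93.8 and 105 in Mss4a males and females, 177 and 154 in BDIV males and females, and 80.6 and 85.6 in BDIX males and females. It was above background in 6 pools, the exceptions being the Mss4a and BDIX males. The Mss4d female pool did not stand apart for Duox2: its normalized level of 5.58 was below both BDIV pools, at 6.66 in males and 6.37 in females. Within Mss4d the male level was 11.4-fold the female level.

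Iyd encodes the iodotyrosine deiodinase that recovers iodide from unused iodotyrosines. Its signal was 366 in the Mss4d male pool and 130 in the Mss4d female pool, which was not above background with a detection p of 0.187. The 6 pools of other strains, from 65.4 to 93.9, were not above background either. Iyd was at least 5.46-fold higher in Mss4d males than in Mss4d females, a bound because the dim pool was set at the lowest level detected on its array or at its own level where that was higher.

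Tshr encodes the receptor for thyrotropin. It gave a signal of 1159 in the Mss4d male pool and 155 in the Mss4d female pool, both above background, against 62.1 to 83.4 in the 6 other pools, none of them above background. The Mss4d male level was 16.7-fold the Mss4d female level, and the female pool exceeded the highest of the other strains by 0.59 on the log2 scale.

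Dio1 encodes the type 1 deiodinase, which converts the prohormone thyroxine to its active form in thyroid, liver and kidney. Its signal was 13529 in the Mss4d male pool and 386 in the Mss4d female pool. In the 6 pools of other strains it ran from 62.3 to 94.6, and only the BDIV female pool, at 89.4, was just above background, with a detection p of 0.0473. Both Mss4d pools lay above every other pool, and the male level was 45.4-fold the female level.

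Pax8 and Foxe1 encode transcription factors of the follicular lineage, and Cdh16 encodes a cadherin of follicular and kidney epithelium. The Pax8 signal was 307 in the Mss4d male pool and 136 in the Mss4d female pool, against 61.5 to 85.4 in the other strains. The Foxe1 signal was 2216 in the Mss4d male pool and 125 in the Mss4d female pool, against 46.5 to 86.6 in the other strains. The Cdh16 signal was 1581 in the Mss4d male pool and 118 in the Mss4d female pool, against 51.8 to 87.5 in the other strains. For all of these genes the Mss4d male pool was the only pool above background, so that the Mss4d female pool could not be told from the other strains at this sensitivity. The level in Mss4d males was higher than in Mss4d females at least 4.35-fold for Pax8, at least 40.1-fold for Foxe1 and at least 28.2-fold for Cdh16.

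Calca, the C cell gene, was likewise highest in the Mss4d male pool, with the Mss4d female pool next. Its signal was 38316 in the Mss4d male pool and 743 in the Mss4d female pool, against 80.2 and 80.4 in Mss4a males and females, 57.8 and 61.9 in BDIV males and females, and 65.3 and 51.8 in BDIX males and females. The 6 pools of other strains were not above background, with detection p between 0.350 and 0.736. The Mss4d male level was 60.1-fold the Mss4d female level, the largest of the 6 folds that could be measured on both sides.

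The absence of Calca signal from the other strains stood beside a strong signal for its paralog. Calcb, which encodes the second CGRP peptide and was named after its values were seen, was above background on all 8 arrays, at 9.83 and 10.08 in Mss4d males and females, 10.48 and 10.13 in Mss4a males and females, 11.12 and 11.29 in BDIV males and females, and 10.02 and 9.37 in BDIX males and females. Calcb thus did not share the excess in Mss4d that Calca showed. Whether the Calca probe reads the calcitonin message, the CGRP message or both is not given in the sources used here, so its levels cannot be assigned to either product.

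**Figure D1:**
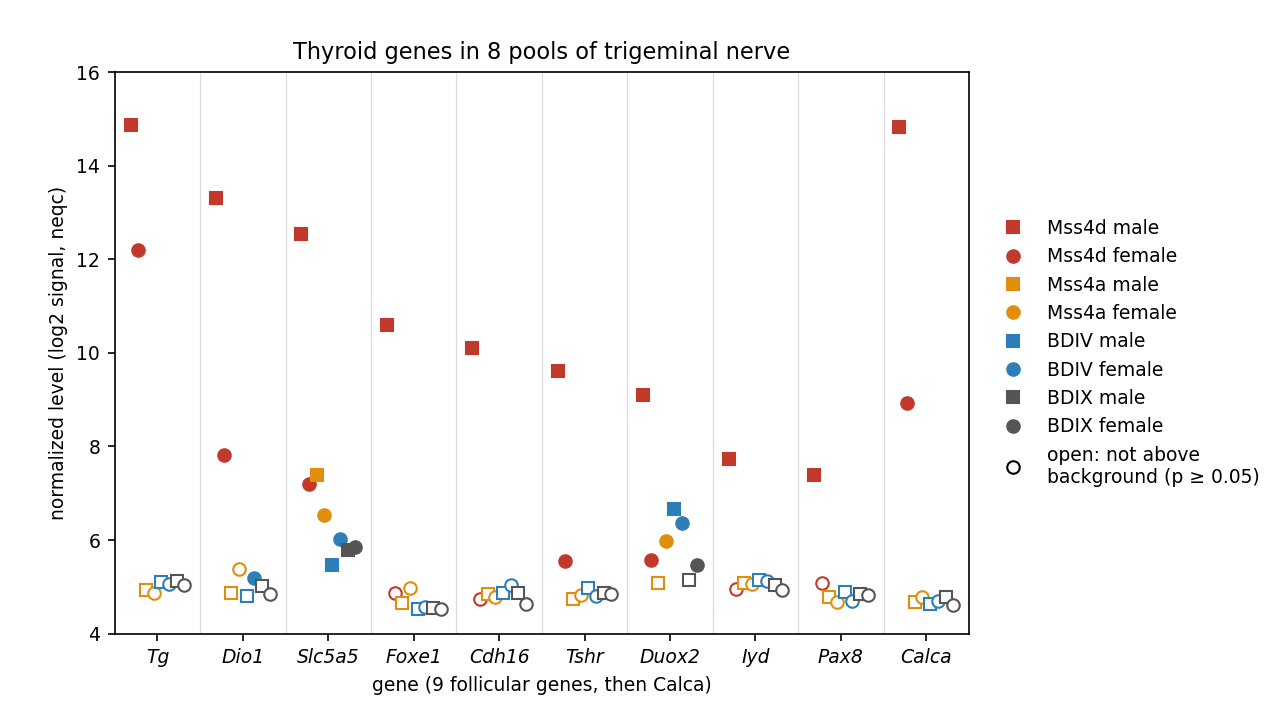
Normalized level (log2 signal after neqc, vertical axis) of the 9 follicular genes and Calca (horizontal axis) in each of the 8 pools, with squares for males, circles for females, colours for strains and open symbols for values not above background. The Mss4d male pool is the highest for each of the 10 genes, and the Mss4d female pool stands well above the other strains for Tg (12.20), Calca (8.92) and Dio1 (7.81); levels are to be compared within a gene, since probes differ in brightness.

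The 10 genes were then expressed as amounts relative to the Mss4d male pool, taking the signal above each array's background median. The amount in the Mss4d female pool was 16.3% of that in the Mss4d male pool for Tg. It was 5.35% for Duox2, 3.52% for Tshr, 2.07% for Slc5a5, 1.99% for Dio1 and 1.64% for Calca. The genes therefore did not share 1 ratio between the Mss4d pools: Slc5a5, Dio1 and Calca lay close together near the low end, and Tg stood well above them. For Foxe1, Cdh16, Iyd and Pax8 the female amount could only be bounded, at no more than 1.20%, 1.72%, 10.05% and 13.2% of the male amount.

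Tg and Calca were among the brightest probes in the Mss4d male pool, where the brightest of all read 60658. The part of signal compression in their ratios was not tested. On the same scale Duox2 stood at 16.1% in BDIV males and 12.8% in BDIV females, above the Mss4d female pool. Slc5a5 stood between 0.488% and 0.933% in the 6 pools of other strains, below the Mss4d female pool on this scale. The scale is not corrected for the brightness of the arrays. After normalization the Mss4a male pool, at 7.39, was above the Mss4d female pool, at 7.20, for Slc5a5.

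For the pools of the other strains Tg gave the tightest bound. Its amount could be at most 0.0452% of the Mss4d male amount in Mss4a males and 0.0395% in Mss4a females, 0.0663% in BDIV males and 0.0660% in BDIV females, and 0.0524% in BDIX males and 0.0430% in BDIX females. These limits take the lowest signal counted as above background on each array and are not scaled for array brightness. With arrays scaled to the median of their detected probes the highest limit was 0.102%, in Mss4a males. Dio1 was above background in 1 of these 6 pools, BDIV females, where it amounted to 0.1996% of the Mss4d male amount. No thyroid array was analysed here, so these percentages do not give the share of thyroid tissue in any pool. The upper limits follow each array's own background and brightness and set no order among the 6 pools.

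**Figure D2:**
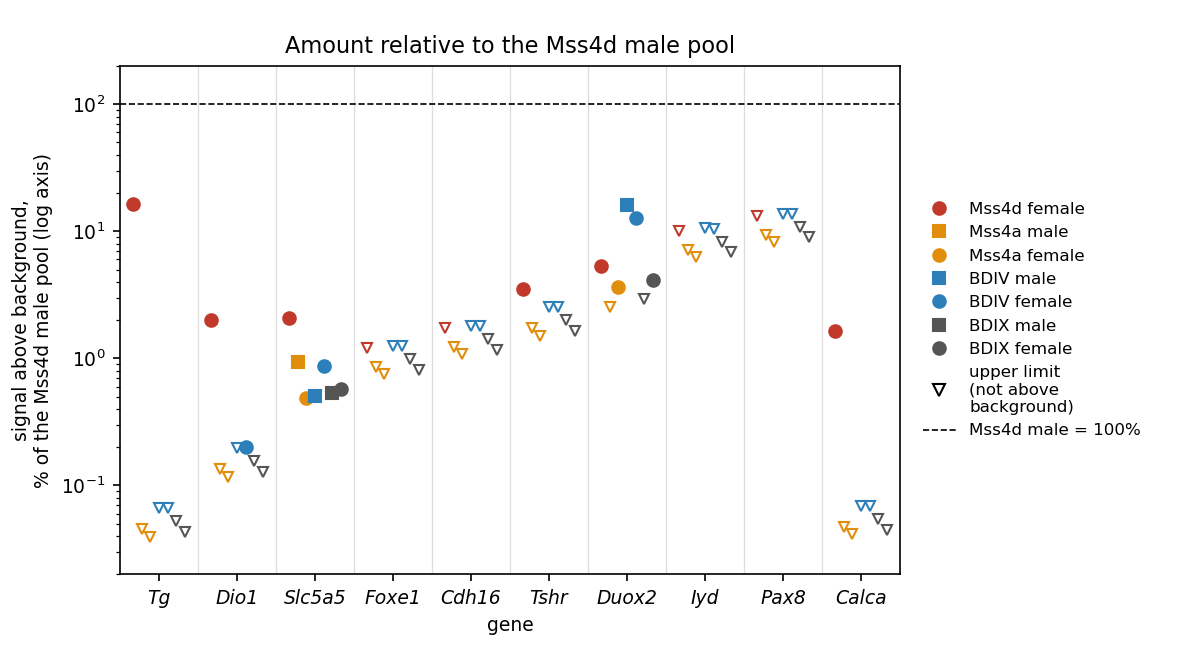
Signal above background as a percentage of the Mss4d male pool (log axis) for each gene, with 1 symbol per pool and open triangles as upper limits where the signal was not above background. In the Mss4d female pool Tg stands at 16.3% and Calca at 1.64%, and in the 6 pools of other strains the upper limits for Tg lie between 0.0395% and 0.0663%.

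Each strain was next compared with BDIX in a limma fit of strain and sex over all 8 arrays. The 13114 probes above background on at least 2 arrays were tested, which kept 6 of the 10 genes: Tg, Calca, Dio1, Slc5a5, Tshr and Duox2. Foxe1, Cdh16, Iyd and Pax8 did not pass this filter, being above background on 1 array each. Differences are given as log2 ± standard error with n = 2 arrays per strain.

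In Mss4d against BDIX, with Benjamini-Hochberg adjustment over all tested probes, 2 of the 6, Tg and Calca, passed a threshold of 0.05, where 5.34% of all probes did. This contrast chose the genes, so nothing is read from that count. Slc5a5, the one gene above background in every pool, was higher in Mss4d by 4.05 ± 1.25, and the residual spread of the fit takes in the gap between the Mss4d male and female pools. That value was 1.42 without the Mss4d male array and 6.67 without the Mss4d female array. Duox2 was higher by 2.03 ± 0.92, and by 0.12 without the Mss4d male and 3.93 without the Mss4d female array. Where BDIX was not above background, the excess of the mean of the 2 Mss4d pools was a bound. It was at least 328-fold for Tg, 104-fold for Calca, 41.9-fold for Dio1 and 5.34-fold for Tshr. For Foxe1, Cdh16, Iyd and Pax8 the Mss4d female pool was not above background either. The same calculation gave 5.89 for Foxe1, 4.72 for Cdh16, 2.24 for Iyd and 2.10 for Pax8. These values rest on the Mss4d male pool alone and bound no excess of the strain. Leaving out the Mss4d male array lowered the fitted log2 value of Calca to 4.22, against 7.17 with it, and that of Dio1 to 2.75, against 5.63 with it. Leaving out the same array lowered the fitted value of Tshr to 0.72, against 2.74 with it.

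Mss4a and BDIV shared the BDIX arrays as their control, and their comparisons did not choose the genes. Of the 6 tested genes, Tg, Calca and Tshr were above background in none of the 6 pools of these strains and Dio1 in 1, and they passed the filter through the Mss4d pools, so a difference between these strains could not be measured for them. That leaves Slc5a5 and Duox2. In Mss4a against BDIX Slc5a5 differed by 1.14 ± 1.25 (limma adjusted p = 0.557) and Duox2 by 0.22 ± 0.92 (limma adjusted p = 0.892), while 12.2% of all probes passed. In BDIV against BDIX Slc5a5 differed by -0.08 ± 1.25 (limma adjusted p = 0.978) and Duox2 by 1.20 ± 0.92 (limma adjusted p = 0.396), while 21.0% of all probes passed. Neither gene passed in either comparison.

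These errors carried the wide gap between the Mss4d pools, so the comparisons were repeated on the 6 arrays of the other strains. Duox2 was then higher in BDIV than in BDIX by 1.20 ± 0.30 (limma adjusted p = 0.0352), where 20.1% of all probes passed. Both BDIV pools lay above both BDIX pools for Duox2, at 6.66 and 6.37 in BDIV males and females against 5.16 and 5.46 in BDIX males and females, and the BDIX male value was not above background. In fits over all 8 arrays the size of this difference depended on the processing. It was 0.60 without background correction, 0.70 on the authors' values and 1.31 with arrays scaled to medians. None of these passed the threshold, nor did the main fit over all 8 arrays. Other processing was not tried on the 6 arrays alone. With the BDIX female array left out of the 8 the difference was 1.84, and with the BDIX male array left out 0.57. In those fits the remaining BDIX array took in the sex term, which carries the gap between the Mss4d pools. Leaving out the Mss4d male or the Mss4d female array left the difference at 1.20. Slc5a5 was 1.14 ± 0.34 higher in Mss4a than in BDIX on the 6 arrays and missed the threshold (limma adjusted p = 0.0748), with 9.46% of all probes called.

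The sexes were compared in the same fit. Over all strains 0 of the 6 genes passed in males against females, and 0.0% of all probes did (526 of 13114 had an unadjusted p under 0.05 in limma). Without the Mss4d arrays 0.0% of all probes passed, and males minus females was 0.08 ± 0.27 for Slc5a5 (limma adjusted p = 0.985) and -0.31 ± 0.24 for Duox2 (limma adjusted p = 0.954). Slc5a5, above background in all pools, differed between males and females by 0.86 in Mss4a, -0.55 in BDIV and -0.05 in BDIX on the log2 scale, against 5.34 in Mss4d. For the genes at background in these strains, Tg and Calca among them, no sex difference could be measured there. The difference between the sexes in Mss4d rests on 1 pool of each sex and has no replicate check.

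The 10 genes were set among all probes that were highest in 1 pool. In the Mss4d male pool 245 of 22523 probes, 1.09%, exceeded the other 7 pools by more than 1 on the log2 scale, and all 10 genes were among them. That count uses the values that chose the genes and is given as a description. In the other pools the number of such probes was 1 in Mss4d females, 48 and 61 in Mss4a males and females, 3 and 5 in BDIV males and females, and 7 and 99 in BDIX males and females. Ranked by that excess, Calca came first of all 22523 probes, Foxe1 second and Dio1 at place 4, with Slc5a5 at 6 and Cdh16 at 8. For Foxe1, Cdh16, Iyd and Pax8 all other pools were at background, so their excess and place are measured against background. Tshr followed at 23, Tg at 74, Iyd at 78, Duox2 at 84 and Pax8 at 95. For Tg the next highest pool was the Mss4d female one, at 12.20 against 14.87 in Mss4d males.

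**Figure D3:**
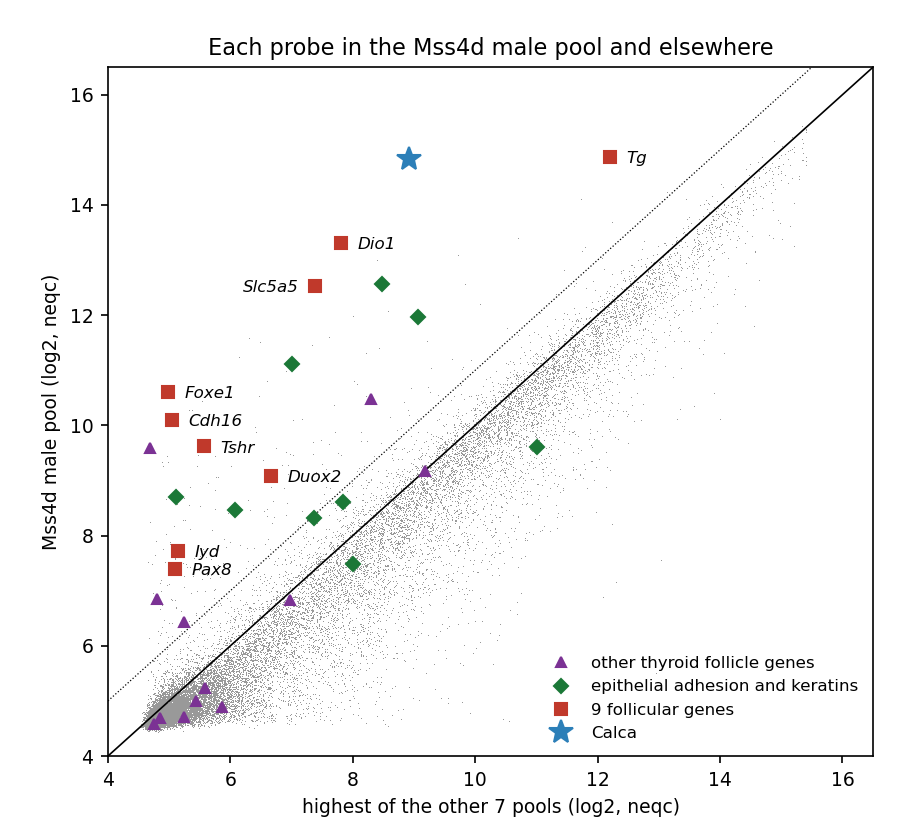
Normalized log2 level of each of the 22523 probes in the Mss4d male pool (vertical axis) against the highest of the other 7 pools (horizontal axis), with equality as a solid line and an excess of 1 as a dotted line. All 10 genes lie above the dotted line, as do 5 of 9 epithelial genes and 4 of 12 other thyroid follicle genes.

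Other genes of the follicle were looked up from a list that was written with earlier results known. Of 18 listed, 12 had a probe, and 4 of these exceeded all other pools in Mss4d males by more than 1. The iodide and monocarboxylate transporter gene Slc5a8 stood at 9.59 in Mss4d males and 4.68 in Mss4d females, and the transcription factor gene Hhex at 10.47 in Mss4d males and 7.90 in Mss4d females. The others, named after their values were seen, were the anion exchanger gene Slc26a7, at 6.85 in Mss4d males and 4.81 in Mss4d females, and the thyroid and lung transcription factor gene Nkx2-1, at 6.42 and 4.63 in the same pools. Slc5a8, Slc26a7 and Nkx2-1 were above background in Mss4d males and not in Mss4d females.

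Of the 12 genes, 6 were above background in Mss4d males. Over all 12 the median difference between Mss4d males and Mss4d females was 0.0005, beside -0.05 for all tested probes. The potassium channel gene Kcnj13 stood at like levels in both Mss4d pools, at 6.83 in males and 6.97 in females against 4.90 to 5.64 in other strains. The thyroid hormone receptor gene Thrb showed the same order, at 9.17 in Mss4d males and 9.18 in Mss4d females against 6.54 to 8.39 in other strains. The other 6 genes, among them Slc26a4, which encodes the follicular anion exchanger pendrin, and the deiodinase genes Dio2 and Dio3, were not above background in Mss4d males.

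A second list held genes of C cells and other neuroendocrine cells. Of 24 listed, 19 had a probe, and 1 of them exceeded all other pools in Mss4d males by more than 1. This was Gfra4, which encodes the persephin receptor of C cells, at 7.40 in Mss4d males and 5.10 in Mss4d females, where it was not above background. The prohormone convertase gene Pcsk2 stood at 8.85 in Mss4d males and 7.33 in Mss4d females, with 6.81 to 8.16 in other strains. The granin gene Scg2 went the other way, at 6.91 in Mss4d males and 7.87 in Mss4d females, as did the receptor tyrosine kinase gene Ret, at 9.003 in Mss4d males and 9.68 in Mss4d females. Of the 19, 13 were above background on all 8 arrays, sensory neurons being a known source of many of these transcripts.

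Markers of neighbouring tissue were read in the same pools. Of 4 parathyroid genes, Pth, the parathyroid hormone gene, was above background in Mss4d males, at 5.75, and in no other pool. It exceeded the other pools by 0.80. Gcm2, the parathyroid lineage factor gene, and Gata3 were above background in none. Casr was above background in all 8 pools, at 6.16 in Mss4d males and 6.62 in Mss4a males. Some epithelial genes were also high in the Mss4d male pool: 5 of 9 exceeded all other pools in Mss4d males by more than 1. The median difference of all 9 between Mss4d males and Mss4d females was 3.34. The epithelial adhesion gene Epcam stood at 12.57 in Mss4d males and 7.20 in Mss4d females, and the tight junction gene Cldn3 at 11.12 in males and 6.15 in females. The keratin gene Krt8 stood at 11.97 in Mss4d males and 8.62 in Mss4d females, and the splicing factor gene Esrp1 at 8.70 in males and 4.91 in females. Epcam was higher in Mss4a females, at 8.46, and BDIX males, at 8.47, than in Mss4d females. Krt19 and Ocln exceeded the other pools in Mss4d males by 0.77 and 0.95. Cdh1 and Krt7 did not exceed them. Cdh1 stood at 9.61 in Mss4d males and 11.02 in BDIX females, and Krt7 at 7.48 in Mss4d males and 7.999 in BDIV males. The summed signal above background of the 9 epithelial genes was 19380 in Mss4d males and 2075 in Mss4d females, against 614 to 2369 in the other strains. Their part in the values of the 10 genes was not tested.

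None of the pituitary, thymus, airway, cartilage or muscle genes with a probe exceeded all other pools in Mss4d males by more than 1. Of all probes 1.09% did. At that share lists of 5 to 8 genes would hold few or none, so nothing is read from their absence. Each of the 13 sensory neuron genes above background on all arrays had a lower value in the Mss4d male than in the Mss4d female pool, a comparison of single pools with no test. All 15 sensory neuron genes had a median difference between Mss4d males and Mss4d females of -0.63, against 0.35 in Mss4a, -0.03 in BDIV and -0.11 in BDIX. The 7 myelinating Schwann cell genes had a median of -0.07 and the 7 endothelial genes of 0.41 in Mss4d. Of 9 thyroid hormone response genes 1, Thrsp, exceeded all other pools in Mss4d males by more than 1. Thrsp, which thyroid hormone induces in liver and fat, stood at 11.96 in Mss4d males and 7.26 in Mss4d females. In the other strains Thrsp ran from 4.90 to 8.001. The median difference of all 9 genes between Mss4d males and Mss4d females was -0.01. Mss4d minus BDIX was 3.76 for Thrsp, 1.85 for Thrb, -0.87 for Thra and -0.85 for Me1.

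**Figure D4:**
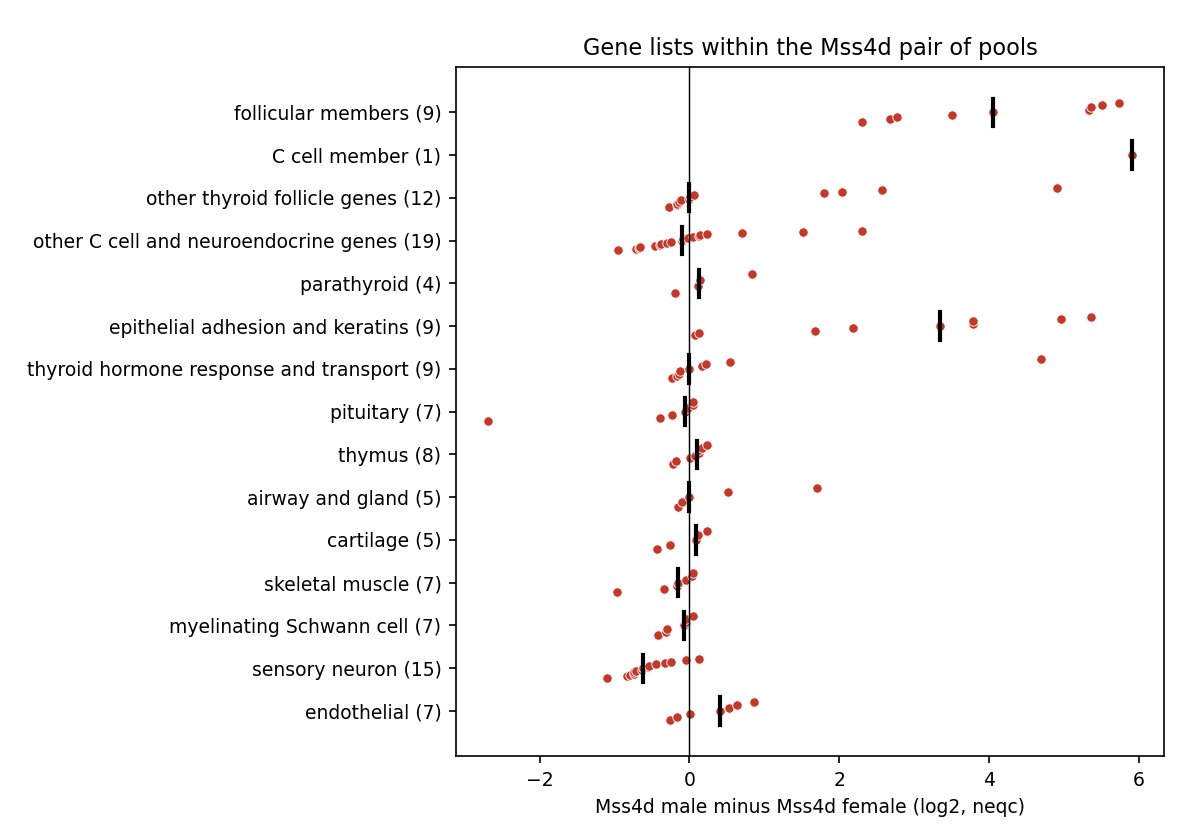
Difference between the Mss4d male and Mss4d female pools (log2, horizontal axis) for each gene of 15 lists, with the number of genes with a probe in brackets, 1 point per gene and a vertical bar at the list's median. Calca lies at 5.91, Tg at 2.67 and the other 8 genes between 2.31 and 5.74, where Foxe1, Cdh16, Iyd and Pax8 are plotted against a Mss4d female value at background; the epithelial list has a median of 3.34, and the sensory neuron list a median of -0.63.

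The genes most like Tg and Calca across the 8 arrays were found by Pearson's r among 1110 named probes whose level ranged over at least 2 on the log2 scale. The points share 8 arrays and 2 of them carry most of the range, so r is a description. Most like Tg were Calca (r = 0.965), Dio1 (0.939), Stc1 (0.934), Hdac4 (0.934), Kcnj13 (0.928), Ptms (0.919), Col4a3 (0.895), Egfl6 (0.894), Sectm1b (0.894) and Atp6v1c2 (0.891). Most like Calca were Dio1 (0.996), Stc1 (0.989), Sectm1b (0.979), Col4a3 (0.977), Egfl6 (0.977), Tg (0.965), Tshr (0.965), Cilp (0.958), Tas1r1 (0.953) and Gng7 (0.953).

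The Tg list and the Calca list shared 5 of their 10 genes. In the Tg list alone stood Calca, Hdac4, Kcnj13, Ptms and Atp6v1c2, for which Mss4d males minus Mss4d females was 5.91, 0.45, -0.15, 0.32 and 1.29. In the Calca list alone stood Tg, Tshr, Cilp, Tas1r1 and Gng7, for which the same difference was 2.67, 4.06, 1.54, 2.18 and 3.54. Duox2 had the lowest r of the tested genes, 0.672 to Tg and 0.804 to Calca.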

How the data were processed

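Pooled trigeminal nerve RNA was hybridised to Illumina RatRef-12 arrays and read in GenomeStudio 2010, per the submitters' processing notes and the series' design text. The deposited non-normalized table holds linear bead intensity per probe, with detection p-values beside it that, as deposited, rise in steps of 0.00121 (825 background values). The authors' value table is also linear intensity and was a straight line of the former in each array (largest residual 0.0143). Options behind it are not given in the sources used here.

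In R 4.3.3 with limma 3.58.1, neqc (offset 16) gave log2 values, its negative controls being estimated through the detection p-values. Probes with detection p under 0.05 on at least 2 of 8 arrays were tested (13114 of 22523) with strain and sex as terms, which left 3 residual degrees of freedom (prior SD 0.223 on 4.09 degrees of freedom). Benjamini-Hochberg adjustment ran over all tested probes (two-sided, threshold 0.05). The fit was tested on simulated data. Of all probes 13793 had 1 symbol and 8730 none. Relative amounts are signal minus the array's background median, read from its detection p-values.

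The genes and lists were chosen with earlier results of these data known. Named genes are all 10, up to 4 per list by the size of Mss4d minus BDIX among detected genes, and the 10 with the highest r to Tg and to Calca, except where stated. Alternatives were no background correction, arrays scaled to medians, no filter, the authors' values, a trended robust variance, a stricter filter (detection p under 0.01 on all 8 arrays), leaving out each array or both Mss4d arrays, and other backgrounds and scalings for the relative amounts.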

Additional observations from a re-analysis of the deposited data

Results flagged for a closer look

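For 8 genes the Mss4d male pool lay apart from the other 3 male pools, and for 3 of these 8 the Mss4d female pool lay apart from the other 3 female pools. The measure was the gap to the nearest pool as a share of the group's whole range on the normalized log2 scale, set against the critical value of Dixon's test for 4 pools. Among males that share was 0.994 for Cdh16, 0.984 for Calca, 0.981 for Tg, 0.977 for Foxe1, 0.975 for Dio1, 0.965 for Pax8, 0.961 for Iyd and 0.953 for Tshr. Among females it was 0.975 for Tg, 0.965 for Calca and 0.952 for Tshr. Chance puts about 1 in 20 groups past that value, and 11 of 20 passed, but the genes were chosen for their height in Mss4d and share the same 8 pools, so the count is a description. Slc5a5 and Duox2 passed in neither sex.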

How the results depend on the processing

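No paired analysis was possible because the labels give each pool a strain and a sex, both in the fit, and nothing else that pairs pools. Over 330 alternatives of 24 differences in 6 genes, 282 kept direction and side of the threshold, 8 lost the call, 8 gained it and 32 changed sign, these with limma adjusted p of 0.663 or more. That tally includes differences between Mss4a, BDIV and BDIX for genes at background there, so it does not measure how stable the results are. The contrast of Mss4d against BDIX chose the genes, so nothing is read from whether a call was kept there. In that contrast Tg lost the call only without the BDIX female array, at a fitted difference of 8.88 against 8.46 in the main fit. Calca lost it under 7 alternatives, at fitted differences of 5.67 to 8.04. Duox2 in BDIV against BDIX gained it without either Mss4d array.

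The sign changes were in differences that did not pass the threshold. Tg, Calca and Tshr were at background in every Mss4a, BDIV and BDIX pool, and Dio1 in all but the BDIV female pool. For these genes the values below, between those strains or between the sexes without Mss4d, measure no difference. Where a strain was left with 1 array, its value also took in the sex term of the fit, which carries the gap between the Mss4d pools. With arrays scaled to medians they were 0.019 for Tg and 0.16 for Tshr in Mss4a against BDIX and -0.024 for Tshr in BDIV against BDIX. Without both Mss4d arrays males minus females was -0.24 for Dio1, -0.31 for Duox2 and -0.0013 for Calca. Leaving out 1 array gave, in Mss4a against BDIX, -0.62 to 0.26 for Tg, -0.96 to 1.33 for Dio1, -0.82 to 0.67 for Tshr, -0.81 to 1.26 for Duox2 and -1.03 to 1.07 for Calca. In BDIV against BDIX it gave -0.45 to 0.45 for Tg, -0.99 to 1.11 for Dio1, -1.38 to 1.23 for Slc5a5, -0.65 to 0.71 for Tshr and -1.07 to 0.98 for Calca. In males against females it gave -0.24 to 1.76 for Dio1, -0.31 to 1.16 for Duox2 and -0.0013 to 2.002 for Calca.

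Counts of called probes, against which the genes were read, depended on the processing. In Mss4d against BDIX 700 probes passed, 2723 with arrays scaled to medians (71.9% higher, against 25.9%, with a median over all probes of 0.247) and 303 without a filter. Leaving out 1 array gave 0 to 1177: 314 without the Mss4d female, 4 without the Mss4d male, 40 without either BDIV, 0 without the BDIX female (2359 at an unadjusted p under 0.05) and 1177 without the BDIX male array. In Mss4a against BDIX 1605 passed, and 3994 with medians (4.43% higher, against 39.1%, median -0.372). Leaving out 1 array gave 0 to 1241: 161 without the Mss4a female, 240 without the Mss4a male, 186 without either BDIV, 0 without the BDIX female (3419 unadjusted) and 927 without the BDIX male array. In BDIV against BDIX 2758 passed, 62.5% of 3258 being higher with medians, against 47.6%. Leaving out 1 array gave 14 to 2781: 14 without the BDIV female, 55 without the BDIV male and 30 without the BDIX female array. Males against females gave 0 throughout, with 324 to 866 at an unadjusted p under 0.05. The highest upper limit for Tg in other strains was 0.0663%, in BDIV males. With arrays scaled to their detected medians it was 0.102%, in Mss4a males. The causes were not tested.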

Other observations

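Some of the other tissue lists were high in other pools. Prl, the pituitary hormone prolactin, stood at 5.48 and 8.17 in Mss4d males and females and at 6.94 and 12.96 in Mss4a males and females. It stood at 5.37 and 7.71 in BDIV males and females and at 8.85 and 12.59 in BDIX males and females. Bpifa1, an airway secretion gene, stood at 6.88 in Mss4d males, where it was above background, at 5.17 in Mss4d females, and at 8.61 and 12.10 in Mss4a males and females. Its level was 5.05 and 5.31 in BDIV males and females and 5.05 in both BDIX pools. Lcn1, a lipocalin of tear and tongue glands, stood at 6.08 and 6.18 in Mss4d males and females and at 10.36 and 7.60 in Mss4a males and females. It stood at 5.43 and 5.58 in BDIV males and females and at 5.79 and 5.40 in BDIX males and females. Tg and Calca were not above background in any Mss4a or BDIX pool.

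Outside the lists, named probes with a large excess of the Mss4d male pool over the other 7, chosen after their values were seen, included Pdzk1ip1 (5.56), Sectm1b (5.27), the epithelial defensin gene Defb1 (5.08), Egfl6 (5.01) and the ammonium transporter gene Rhbg (4.89). Plvap, a gene of fenestrated endothelium, exceeded the other pools by 4.59, at 12.99 in Mss4d males and 8.40 in Mss4d females. The median difference of 7 general endothelial genes between the same pools was 0.41.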
